A study of Homo sapiens with 29 samples.

Results

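EndoC-βH1 cells kept in medium conditioned by HEK293 cells that overexpressed mutant CEL (MUT) were compared with cells kept in medium conditioned by HEK293 cells that overexpressed wild-type CEL (WT), in batches 1 and 3 of the study's 3 batches. These were all the MUT and WT libraries that the labels place in batch 1 (4 MUT and 4 WT) and in batch 3 (3 MUT and 3 WT), 14 of the 29 libraries in the series, and the batch was a term of the model. EndoC-βH1 is an immortalised human pancreatic beta cell line, and HEK293 is a human embryonic kidney line. In every group the HEK293 line carried its construct stably, the medium it had conditioned for 3 hours was filtered and brought to equal protein, and the beta cells received fresh conditioned medium each day for 10 days. Medium from HEK293 cells with an empty vector (EV) was the study's other control. Neither the labels nor the series text names the mutation, and neither states whether the HEK293 lines were clonal or whether libraries of the same batch and medium came from separate cultures. P-values therefore reflect how far these libraries differed among themselves, which may be technical variation only.

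Carboxyl ester lipase, the product of CEL, is secreted by acinar cells of the pancreas into the gut, where it cleaves cholesterol esters, triglycerides and other esters once bile salts activate it. Inherited CEL mutations cause a dominant form of diabetes with exocrine dysfunction, although beta cells make little of the enzyme. The comparison asks whether beta cells exposed to secreted mutant CEL differ from those exposed to secreted wild-type CEL.

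Polyadenylated RNA was counted as estimated counts per gene, with 26.2 to 38.3 M counts per library, and 21109 of 66025 entries passed the filter on low counts. Levels are given as CPM, which are counts scaled to library size, after TMM normalisation. They are not corrected for gene length, so they are compared between libraries and not between genes. INS had a mean of 12700 CPM over the 14 libraries, while the acinar genes PRSS2, AMY2A and PNLIP were at 0 in all of them, PRSS1 and CTRB1 were at or below 0.00643 CPM and GCG was at 1.30 CPM. Every library was most similar to a library of its own batch, and the first principal component, with 38.8% of the variance, separated the batches. Of the variance across genes, batch took 38.5%, medium 6.73%, the medium by batch term 6.53% and libraries within a batch and medium 48.2%, or 4.82% per degree of freedom. WT library 1 of batch 3, the library with the lowest total, stood apart from the others on the second component. No pair of libraries in a group was as alike as sampling noise alone would make it.

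Over both batches, 52 of 21109 entries (0.246%) differed between MUT and WT medium at a Benjamini-Hochberg adjusted p under 0.05 in edgeR's quasi-likelihood test. Of these, 43 (0.204%) were higher and 9 (0.0426%) were lower in MUT medium. The differences were small: among the 46 with a mean of at least 5 CPM, the log2 fold change ran from 0.15 to 0.72 in the 40 that rose and from -0.64 to -0.19 in the 6 that fell, and 2 changed by more than 1.5-fold. All 49 called entries that could be tested in each batch alone had the same sign in both. In 31 of the 43 higher entries every MUT library lay above every WT library in both batches, against 0.9% of all entries tested, and in 6 of the 9 lower entries every MUT library lay below every WT library in both, against 0.388%. Across all 19412 genes tested in each batch alone, 47.3% had the same sign in both batches, and the change in batch 1 and that in batch 3 had a Spearman correlation of -0.0077 across genes, which are not independent replicates. Across the 12965 genes with a mean of at least 5 CPM that correlation was -0.099. The called entries were chosen by that same contrast, so their signs and lack of overlap are a description. The count of 52 was not stable: it became 0 in a test against a fold of 1.2, 679 with DESeq2 and 793 once a trend with GC content and length was removed, and leaving out single libraries gave 0 to 169. Every library but WT library 1 of batch 3 moved the count by more than 1.5 times when it was left out.

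**Figure D1:**
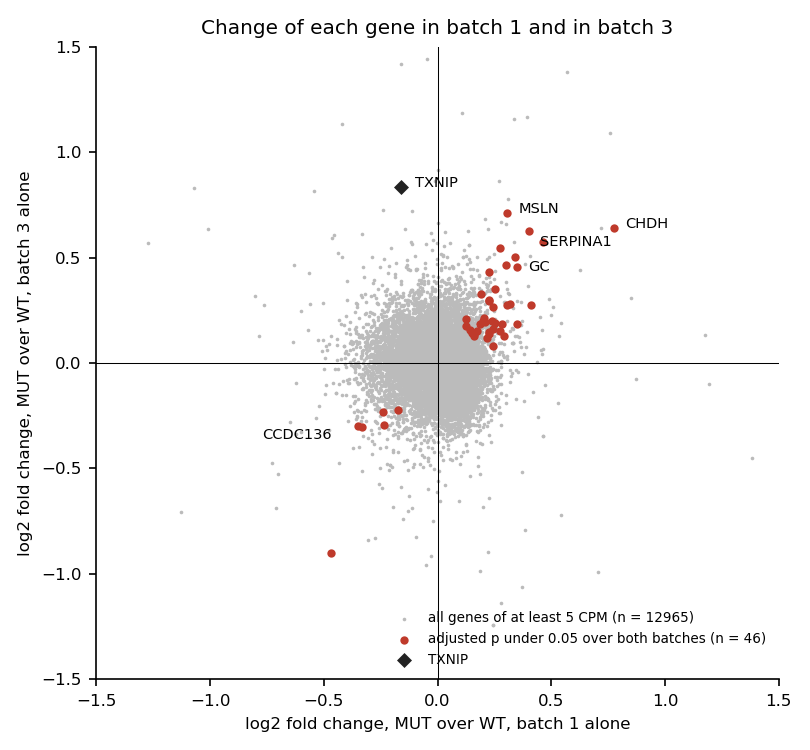
Each point is a gene with a mean of at least 5 CPM, at its log2 fold change between MUT and WT medium in batch 1 alone (horizontal) and in batch 3 alone (vertical); 12965 genes are included and 15 lie outside the axes. The cloud of all genes has no slope along the diagonal, and the 46 entries called over both batches lie above 0 in both batches or below 0 in both, while TXNIP lies at -0.16 in batch 1 and 0.83 in batch 3.

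The entry with the smallest p was GC (ENSG00000145321; chr4:71741693-71804041, minus strand, GENCODE release 29 on GRCh38), which encodes the secreted vitamin D-binding protein and is among the genes that mark alpha cells. It had 106, 97.7, 97.1 and 113 CPM in MUT libraries of batch 1, against 85.0, 72.1, 75.5 and 91.7 CPM in WT libraries. In batch 3 it had 95.9, 95.1 and 93.1 CPM in MUT libraries, against 63.3, 67.9 and 74.0 CPM in WT libraries. All MUT libraries lay above all WT libraries of their batch. The log2 fold change was 0.40 ± 0.056 (SE; adjusted p = 0.0371), with 0.35 ± 0.076 in batch 1 alone and 0.46 ± 0.061 in batch 3 alone. The summed level of 8 alpha cell markers was 947 to 1070 CPM in MUT and 857 to 902 CPM in WT libraries of batch 1, and 1660 to 1720 CPM in MUT and 1590 to 1740 CPM in WT libraries of batch 3. Those 8 include GC itself, and most of the sum was TTR, at a mean of 1090 CPM. Over both batches 4 of the 8 had a log2 fold change above 0, and the median was 0.02. GCG, the hormone gene that defines alpha cells, was at 1.30 CPM, and the part of such cells in the change of GC was not tested.

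SERPINA1 (chr14:94376747-94390693, minus strand), the gene of the secreted protease inhibitor alpha-1 antitrypsin, had 80.9, 61.3, 64.3 and 89.6 CPM in MUT libraries of batch 1, against 62.1, 49.6, 56.2 and 56.4 CPM in WT libraries. In batch 3 its values were 114, 117 and 103 CPM in MUT libraries, against 66.5, 76.5 and 70.9 CPM in WT libraries. The groups overlapped in batch 1, where 1 MUT library lay below the highest WT library, and did not overlap in batch 3. The log2 fold change was 0.50 ± 0.081 over both batches (adjusted p = 0.0371), 0.40 ± 0.11 in batch 1 and 0.63 ± 0.068 in batch 3.

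CLU, which encodes the secreted chaperone clusterin, was among the genes of smallest p. It had 620, 624, 565 and 681 CPM in MUT libraries of batch 1, against 520, 530, 527 and 553 CPM in WT libraries. It had 1199, 1184 and 1204 CPM in MUT libraries of batch 3, against 910, 983 and 1007 CPM in WT libraries. The libraries did not overlap in either batch, and the log2 fold change was 0.26 ± 0.039 (adjusted p = 0.0371). OLFM1, which encodes a secreted glycoprotein of the olfactomedin family, rose by 0.21 ± 0.036 on the log2 scale (adjusted p = 0.0371), with 0.20 in batch 1 and 0.21 in batch 3.

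Further called genes encode cell surface proteins, set together here by their known roles and not from a list that was tested. CDH17, an intestinal and pancreatic cadherin, had 450, 438, 434 and 453 CPM in MUT libraries of batch 1, against 377, 340, 356 and 392 CPM in WT libraries. It had 579, 595 and 569 CPM in MUT libraries of batch 3, against 531, 519 and 504 CPM in WT libraries. The groups were apart in both batches, and the log2 fold change was 0.23 ± 0.036 (adjusted p = 0.0371). MSLN, the gene of the surface glycoprotein mesothelin, rose by 0.48 ± 0.080 (adjusted p = 0.0371), with 0.30 ± 0.091 in batch 1 and 0.71 ± 0.092 in batch 3. CDH2, neuronal cadherin and the only member of a list of adhesion and matrix genes to pass (26 tested, median 0.07), rose by 0.18 ± 0.036 (adjusted p = 0.0461) and had 0.24 in batch 1 and 0.08 in batch 3. MARVELD3, a tight junction protein, rose by 0.19 ± 0.034 (adjusted p = 0.0392), and CNNM1, a membrane protein of a family linked to magnesium transport, rose by 0.36 ± 0.063 (adjusted p = 0.0392). ZNF503, a zinc finger transcriptional repressor, had a log2 fold change of 0.30 ± 0.050 (adjusted p = 0.0371).

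CD68, a lysosomal membrane protein best known from macrophages, had 35.2 to 39.3 CPM in MUT libraries of batch 1, against 29.2 to 35.8 CPM in WT libraries, and 54.2 to 55.8 CPM in MUT libraries of batch 3, against 41.4 to 47.3 CPM in WT libraries. Its log2 fold change was 0.26 ± 0.046 (adjusted p = 0.0392). CD68 was the only called member of a list of stromal and immune markers of which 10 of 12 were under 1 CPM. PTPRC, which marks leukocytes, was at 0.0505 CPM. The summed level of that list, most of it CD68, was 38.1 to 42.7 CPM in MUT libraries and 32.5 to 38.9 CPM in WT libraries of batch 1, and 59.4 to 61.7 CPM in MUT libraries and 46.9 to 52.3 CPM in WT libraries of batch 3.

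**Figure D2:**
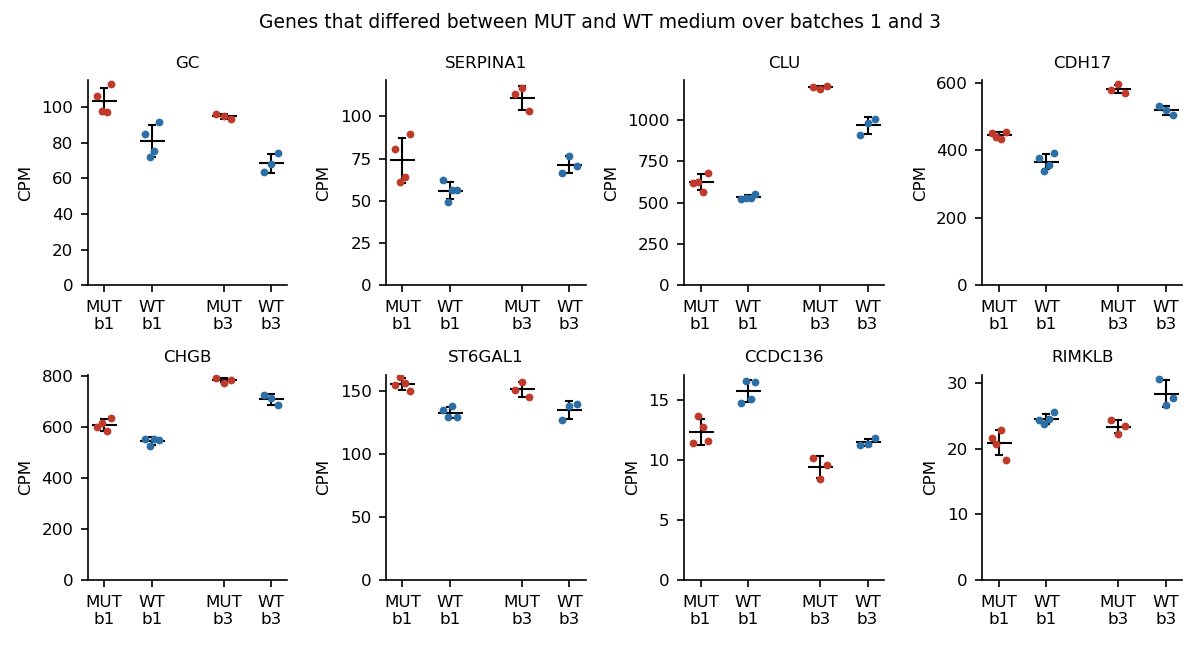
CPM of 8 genes called over both batches, with 1 point per library, MUT (red) left of WT (blue) for batch 1 (b1) and batch 3 (b3); black bars are mean ± SD (n = 4 per group in batch 1 and 3 in batch 3), and every axis starts at 0. Among these genes the MUT and WT points overlap only for SERPINA1 in batch 1.

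CHGB, which encodes the granule protein chromogranin B, was the only called member of 20 prohormone processing and granule genes. It had 600, 619, 584 and 636 CPM in MUT libraries of batch 1, against 556, 525, 555 and 549 CPM in WT libraries. It had 793, 776 and 786 CPM in MUT libraries of batch 3, against 728, 717 and 687 CPM in WT libraries. The groups were apart in both batches and the log2 fold change was 0.15 ± 0.029 (adjusted p = 0.0407). SCG2, secretogranin II, was also apart in both batches, with a log2 fold change of 0.13 ± 0.033 that did not pass (adjusted p = 0.0858). The median log2 fold change of the 20 was 0.07 over both batches, 0.12 in batch 1 and -0.0014 in batch 3, against 0.0017 for all genes tested and 0.0141 for the 12965 genes of at least 5 CPM.

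Other called genes encode enzymes and membrane proteins, again set together without a tested list, and the lists of autophagy and lysosome, fatty acid and cholesterol genes had no called member over both batches. ST6GAL1, a Golgi enzyme that adds sialic acid to glycoproteins, had 150 to 161 CPM in MUT libraries of batch 1, against 129 to 138 CPM in WT libraries, and 146 to 158 CPM in MUT libraries of batch 3, against 127 to 140 CPM in WT libraries (log2 fold change 0.20 ± 0.034, adjusted p = 0.0371). GDE1, a glycerophosphodiester phosphodiesterase, rose by 0.19 ± 0.032 (adjusted p = 0.0371) and was apart in both batches. The following genes fell outside the rule for named genes and were chosen after their values were seen. SURF4, an endoplasmic reticulum cargo receptor, had a log2 fold change of 0.16, the Golgi stacking protein GORASP2 of 0.17, the Golgi N-glycan branching enzyme MGAT2 of 0.18 and the sulfhydryl oxidase QSOX1 of 0.23. SURF4 is listed a second time in the table, without a symbol and with identical counts. GLB1, lysosomal beta-galactosidase, changed by 0.21, the ceramide synthase CERS2 by 0.16 and the sphingosine 1-phosphate phosphatase SGPP2 by 0.26. DPP4, the peptidase that inactivates incretin hormones, changed by 0.23, the growth factor PDGFD by 0.31, the ion transport regulator FXYD3 by 0.42 and the choline dehydrogenase CHDH by 0.72. The adjusted p-values of these 11 genes in edgeR's quasi-likelihood test lay between 0.0401 and 0.0407.

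Of the 9 entries lower in MUT medium, 3 had a symbol and a mean of at least 5 CPM. CCDC136, a coiled-coil protein gene, had 11.4, 13.7, 12.8 and 11.5 CPM in MUT libraries of batch 1, against 14.7, 16.6, 15.1 and 16.4 CPM in WT libraries. It had 10.2, 8.39 and 9.57 CPM in MUT libraries of batch 3, against 11.2, 11.3 and 11.8 CPM in WT libraries. Every MUT library was below every WT library of its batch, and the log2 fold change was -0.32 ± 0.058 (adjusted p = 0.0401). RIMKLB, an enzyme that couples glutamate to N-acetylaspartate, had 18.4 to 22.9 CPM in MUT libraries against 23.8 to 25.7 CPM in WT libraries of batch 1, and 22.3 to 24.4 CPM in MUT libraries against 26.8 to 30.7 CPM in WT libraries of batch 3 (log2 fold change -0.25 ± 0.050, adjusted p = 0.0450). RBM19, a nucleolar RNA-binding protein needed for ribosome synthesis, fell by 0.19 on the log2 scale (SE 0.038, adjusted p = 0.0487).

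A list of 24 RNA-binding and nuclear speckle genes had no called member, yet all 24 log2 fold changes were below 0. The median was -0.10 over both batches, -0.10 in batch 1 with 20 of 24 below 0, and -0.13 in batch 3 with 22 of 24 below 0. In all, 13 members had an unadjusted p under 0.05, all of them lower, against 2954 of 21109 entries (14%) in either direction and 5.84% lower. Without WT library 1 of batch 3, the library that stood apart, 20 of 24 were below 0 over both batches, and in batch 3 the median was -0.05 with 19 of 24 below 0. Without MUT library 2 of batch 1 the median in batch 1 was -0.07. MALAT1, an abundant nuclear long noncoding RNA, had 358, 274, 353 and 336 CPM in MUT libraries of batch 1, against 432, 386, 385 and 415 CPM in WT libraries. It had 303, 250 and 282 CPM in MUT libraries of batch 3, against 401, 323 and 307 CPM in WT libraries. It lay below WT in both batches, with a log2 fold change of -0.30 ± 0.068 (adjusted p = 0.0628). In batch 3 alone it was -0.32 ± 0.11, and -0.19 ± 0.074 without WT library 1. RBM3, a cold-inducible RNA-binding protein, and 1 other member also lay below WT in both batches, RBM3 with -0.12 ± 0.030 (adjusted p = 0.0839). Once a trend with GC content and length was removed, the median over both batches was -0.09 and 4 of the 24 were called lower, against 279 of 19239 genes called lower. In batch 1 alone the median was then -0.14, with 4 called lower, against 303 of 18432 genes. In batch 3 alone it was -0.06, with none called.

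The EV libraries of the same batches (3 in each) were not part of the test, and their levels show on which side of the difference the empty vector lay. Scaled together with the EV libraries, the means for GC were 103 ± 7.5 CPM in MUT, 80.4 ± 8.6 CPM in WT and 106 ± 7.4 CPM in EV medium in batch 1 (SD, n = 4, 4 and 3), and 94.6 ± 1.6 CPM in MUT, 68.9 ± 5.2 CPM in WT and 80.1 ± 1.1 CPM in EV medium in batch 3 (SD, n = 3 each). For CDH17 they were 443 CPM in MUT, 363 CPM in WT and 437 CPM in EV medium in batch 1, and 580 CPM in MUT, 522 CPM in WT and 586 CPM in EV medium in batch 3. For MSLN in batch 3 they were 9.15 CPM in MUT, 5.58 CPM in WT and 9.60 CPM in EV medium. Among 41 called genes with a symbol and at least 5 CPM, the EV mean was nearer to the MUT mean than to the WT mean in 38 genes in batch 1, in 20 in batch 3 and in 18 (43.9%) in both, and nearer to WT in both batches in 1 gene. Of all 11990 genes with a symbol and at least 5 CPM, 3965 were nearer to MUT in batch 1 and 4054 in batch 3. In both batches, 12.8% were nearer to MUT and 45.9% nearer to WT. The 41 were chosen for their difference between MUT and WT, so these counts describe them and were not tested.

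The main beta cell genes did not pass the test. INS had 9182, 10400, 9271 and 10900 CPM in MUT libraries of batch 1, against 8922, 10980, 10010 and 9244 CPM in WT libraries. It had 16030, 19630 and 19470 CPM in MUT libraries of batch 3, against 11440, 14000 and 18250 CPM in WT libraries. The groups overlapped in both batches (log2 fold change 0.16 ± 0.093, adjusted p = 0.469). The islet amyloid gene IAPP had 0.11 ± 0.062, PDX1 0.08 ± 0.045, NKX6-1 0.08 ± 0.045, MAFA 0.19 ± 0.055 and NEUROD1 -0.05 ± 0.042, the last 4 being transcription factors of beta cells, with adjusted p-values from 0.132 to 0.649. Of 35 genes that mark or specify beta cells none was called and the median log2 fold change was 0.05. PAX6, an islet transcription factor, had -0.11 ± 0.036 (adjusted p = 0.166), with -0.19 in batch 1, where the groups were apart, and -0.02 in batch 3. The cells' own CEL was low, at 1.26 to 1.87 CPM in MUT libraries against 1.70 to 2.62 CPM in WT libraries of batch 1, and 7.36 to 9.93 CPM in MUT libraries against 7.77 to 12.8 CPM in WT libraries of batch 3 (log2 fold change -0.24 ± 0.14, adjusted p = 0.458).

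No potassium channel, calcium channel or imprinted gene was called over both batches, and the medians of those lists were -0.01, -0.04 and 0.05. The values of single genes that did not pass follow. CACNA1A, the pore of the P/Q-type calcium channel, had 72.7 to 82.4 CPM in MUT libraries against 87.0 to 106 CPM in WT libraries of batch 1, and 64.6 to 70.9 CPM in MUT libraries against 67.1 to 89.8 CPM in WT libraries of batch 3 (log2 fold change -0.27 ± 0.060, adjusted p = 0.0615). The sulfonylurea receptor gene ABCC8 had -0.17 ± 0.053 (adjusted p = 0.161), and the imprinted noncoding RNA MEG3 had -0.21 ± 0.052 (adjusted p = 0.0823) and lay below WT in both batches. KCNK3, a background potassium channel, lay above WT in both batches with 0.20 ± 0.046 (adjusted p = 0.0624). FADS2, the delta-6 desaturase of polyunsaturated fatty acid synthesis, had 0.20 ± 0.042 (adjusted p = 0.0605), the acyltransferase LPCAT3 had 0.15 ± 0.040 (adjusted p = 0.0940) and the lysophospholipase ABHD12 had 0.13 ± 0.029 (adjusted p = 0.0620), and all 3 lay above WT in both batches. IGFBP2, a secreted binder of insulin-like growth factors, had 0.27 ± 0.057 (adjusted p = 0.0612). A trend with GC content and length was also removed, after seeing the data. Then 1 potassium and 1 calcium channel were called higher, 1 of each lower, and 3 imprinted genes higher. Of 19239 genes, 514 were called higher and 279 lower. For these single genes, adjusted p in edgeR's quasi-likelihood test then ran from 0.00179 (FADS2) to 0.0463 (ABHD12), except for MEG3, at 0.0973.

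When batch 1 was fitted alone, 0 of 20159 genes (0%) were called, with a smallest adjusted p of 0.0958 and 3359 genes at an unadjusted p under 0.05; DESeq2 called 647, and limma voom with quality weights 0. Without MUT library 4 of batch 1 the count was 149. In batch 3 alone 38 of 19855 genes (0.191%) were called, 30 higher (0.151%) and 8 lower (0.0403%), of which 10 were also called over both batches. Of the 35 that could be tested in batch 1, 13 had the opposite sign there. The count in batch 3 was 105 without WT library 1, 104 without WT library 3, 0 without WT library 2, 14 without MUT library 3 and 9 without MUT library 1 or 2.

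Among the genes that rose in batch 3, SLC38A3, a glutamine transporter, had 58.4, 58.8 and 57.3 CPM in MUT libraries, against 39.4, 40.8 and 42.5 CPM in WT libraries (log2 fold change 0.49 ± 0.052, adjusted p = 0.00933). In batch 1 it had 90.9, 76.7, 74.4 and 81.5 CPM in MUT libraries, against 72.7, 71.5, 76.1 and 73.1 CPM in WT libraries, with 0.14 ± 0.060. DENND11, a gene of the DENN domain family that acts on Rab GTPases, had 50.4, 60.1 and 51.4 CPM in MUT libraries of batch 3, against 25.9, 28.1 and 30.9 CPM in WT libraries (0.92 ± 0.084, adjusted p = 0.00783), while in batch 1 the groups overlapped, with 28.9 to 64.1 CPM in MUT and 17.8 to 52.1 CPM in WT libraries (0.00 ± 0.30). IGF2, the imprinted insulin-like growth factor gene beside INS, had 1173, 1222 and 1258 CPM in MUT libraries of batch 3, against 882, 924 and 959 CPM in WT libraries (0.39 ± 0.050, adjusted p = 0.0246), and 1646 to 1956 CPM in MUT libraries of batch 1, against 1484 to 1937 CPM in WT libraries (-0.06 ± 0.083). IGF2 overlaps a read-through transcript with INS, so its estimated counts are uncertain.

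The phospholipase PLCH2 (0.87 ± 0.10), the lectin-like secreted protein ZG16B (0.50 ± 0.060), the laminin receptor BCAM (0.37 ± 0.047) and the actin-bundling protein ESPN (0.43 ± 0.054) also rose in batch 3, as did SERPINA1 and MSLN, with adjusted p-values from 0.00997 to 0.0246. ZG16B is listed a second time with identical counts and no symbol. ERMN, an actin-binding protein best known from oligodendrocytes, fell in batch 3 (-0.56 ± 0.082, adjusted p = 0.0409). In batch 1 the log2 fold change was -0.01 for PLCH2, 0.11 for ZG16B, 0.01 for BCAM, 0.23 for ESPN and 0.00 for ERMN. None of these differences between the batches passed the interaction test.

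The difference between MUT and WT medium itself differed between batch 3 and batch 1 for 7 of 21109 entries (0.0332%) in the interaction test, 1 in which it was higher in batch 3 (0.00474%) and 6 in which it was lower (0.0284%), and 3623 had an unadjusted p under 0.05. Of these 7, 6 were entries without a symbol that held identical counts, with 3.86, 2.27 and 2.40 CPM in MUT libraries of batch 3, against 25.8, 27.9 and 8.07 CPM in WT libraries, and 22.8 to 26.0 CPM in MUT libraries of batch 1, against 21.4 to 25.9 CPM in WT libraries. They were also 6 of the 8 entries called lower in batch 3 alone. The other was TXNIP (chr1:145992435-145996600, minus strand), which encodes thioredoxin-interacting protein, an arrestin-like inhibitor of glucose uptake that is induced by glucose in beta cells. It had 7.97, 7.01 and 9.84 CPM in MUT libraries of batch 3, against 4.75, 4.28 and 4.76 CPM in WT libraries. It had 46.7, 40.4, 52.0 and 46.3 CPM in MUT libraries of batch 1, against 52.1, 47.3, 58.3 and 49.0 CPM in WT libraries. The groups were apart in batch 3 and overlapped in batch 1, and the level in either medium was several times higher in batch 1. The log2 fold change was 0.83 ± 0.14 in batch 3 (adjusted p = 0.0661) and -0.16 ± 0.080 in batch 1 (adjusted p = 0.342), and their difference was 1.01 ± 0.16 (adjusted p = 0.0450). That call rested on most single libraries and held in 8 of 23 alternatives, listed in the closing section.

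The glucose response of TXNIP runs through the paired transcription factors ChREBP or MondoA and MLX at a carbohydrate response element in the promoter, and ARRDC4, a related arrestin-domain gene, is induced by the same factors. The RefSeq promoters of both (GRCh38.p14) are shown because of that shared control. The TXNIP window is chr1:145996530-145996829, minus strand, with the match to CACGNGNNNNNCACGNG in capitals, and the ARRDC4 window is chr15:97960453-97960752, plus strand, with the match to CACGTG in capitals.
TXNIP: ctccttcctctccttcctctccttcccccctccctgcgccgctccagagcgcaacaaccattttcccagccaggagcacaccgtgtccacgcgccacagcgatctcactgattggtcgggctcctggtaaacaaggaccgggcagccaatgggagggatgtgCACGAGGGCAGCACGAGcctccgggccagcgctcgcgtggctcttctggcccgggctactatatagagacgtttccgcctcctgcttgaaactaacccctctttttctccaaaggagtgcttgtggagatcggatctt
ARRDC4: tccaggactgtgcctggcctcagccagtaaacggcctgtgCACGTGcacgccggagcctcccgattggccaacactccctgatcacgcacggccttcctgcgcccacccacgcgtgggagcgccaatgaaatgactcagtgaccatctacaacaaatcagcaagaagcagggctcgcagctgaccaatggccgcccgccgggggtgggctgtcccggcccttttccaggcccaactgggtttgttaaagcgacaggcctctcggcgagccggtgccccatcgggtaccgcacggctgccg
Each window holds 1 match, and a second RefSeq window of TXNIP holds none. The motif differs between the genes: the ARRDC4 window holds no match to the longer one. The match starts 88 bases before the annotated start of TXNIP and 210 bases before that of ARRDC4. Both strands were searched, and the motifs are not independent, since the longer one can contain the shorter. The longer motif was found in 20 of 35114 RefSeq promoters of that length (0.057%) and CACGTG in 2548 (7.26%). ARRDC4 was chosen after its values were seen. It had 37.3, 38.4 and 38.4 CPM in MUT libraries of batch 3, against 36.3, 34.1 and 34.0 CPM in WT libraries, and 57.1 to 62.7 CPM in MUT libraries of batch 1, against 56.5 to 66.5 CPM in WT libraries. All MUT libraries lay above all WT libraries in batch 3, as they did for 11.7% of all entries tested, and the groups overlapped in batch 1. The log2 fold change of ARRDC4 was 0.12 ± 0.056 in batch 3 and -0.05 ± 0.055 in batch 1, and neither it nor the difference between them passed (interaction adjusted p = 0.259).

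**Figure D3:**
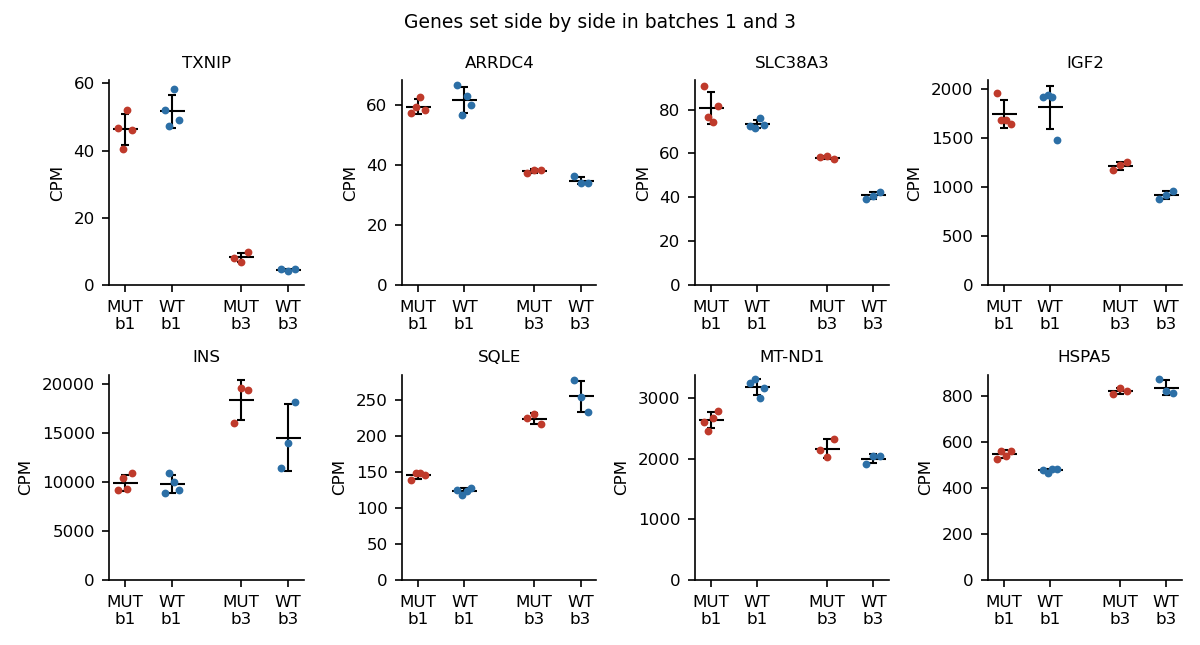
CPM of 8 genes by library, with MUT (red) left of WT (blue) for batch 1 (b1) and batch 3 (b3), mean ± SD in black (n = 4 per group in batch 1 and 3 in batch 3), and axes from 0. SLC38A3, IGF2, TXNIP and ARRDC4 are apart in batch 3 and overlap in batch 1, while HSPA5 and MT-ND1 are apart in batch 1 and overlap in batch 3, and SQLE is apart in opposite directions.

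The medians of some gene lists lay on opposite sides of 0 in batch 1 and batch 3, with no member called in either. Of 28 endoplasmic reticulum chaperones and translocation factors, 26 had a log2 fold change above 0 in batch 1 and 10 in batch 3, with medians of 0.13 and -0.05. Without WT library 1 of batch 3 the median in batch 3 was -0.02, with 9 above 0. In 13 of the 28, all MUT libraries lay above all WT libraries in batch 1, against 5.08% of all genes, in none did all lie below, against 4.47%, and in 4 all lay below in batch 3, against 8.76%. HSPA5, the chaperone BiP, had 529, 564, 539 and 562 CPM in MUT libraries of batch 1, against 478, 467, 483 and 482 CPM in WT libraries. It had 811, 836 and 824 CPM in MUT libraries of batch 3, against 873, 823 and 815 CPM in WT libraries. Its log2 fold change was 0.20 ± 0.037 in batch 1 (adjusted p = 0.104) and -0.04 ± 0.049 in batch 3 (adjusted p = 0.737), where it was -0.00054 without WT library 1. MANF, a secreted endoplasmic reticulum stress factor, had 0.14 ± 0.034 over both batches (adjusted p = 0.0707), with 0.18 in batch 1 and 0.07 in batch 3.

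The list of 25 cholesterol synthesis and uptake genes had a median of 0.09 in batch 1, with 20 members above 0. In batch 3 the median was -0.04, with members split into 12 above and 13 below 0. The batch 3 median was -0.03 without WT library 1 and -0.02 without MUT library 1 of batch 3. SQLE, squalene epoxidase, had 139, 148, 149 and 146 CPM in MUT libraries of batch 1, against 125, 118, 124 and 128 CPM in WT libraries. It had 226, 232 and 217 CPM in MUT libraries of batch 3, against 278, 255 and 233 CPM in WT libraries. It was thus apart in both batches and in opposite directions (0.23 ± 0.042 and -0.20 ± 0.069), as were 0.692% of all genes, and the difference did not pass (interaction adjusted p = 0.133). Without WT library 1 its change in batch 3 was -0.13 ± 0.052. CYP51A1, lanosterol demethylase, had 0.23 ± 0.041 in batch 1 and -0.10 ± 0.080 in batch 3, where it was 0.012 ± 0.042 without WT library 1.

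Messenger RNAs encoded by mitochondrial DNA ran the other way. Of 13, 12 were below 0 in batch 1 and 11 above 0 in batch 3, with medians of -0.22 and 0.17. Without WT library 1 of batch 3 the median in batch 3 was 0.08, with 11 above 0. Without MUT library 4 of batch 1, 7 of the 13 were called lower in batch 1, against 116 of 20460 genes in that fit. With any other single library of batch 1 left out, none of the 13 was called there. MT-CO1, a subunit of complex IV chosen after its values were seen, had 0.19 ± 0.094 in batch 3, and 0.08 ± 0.047 without WT library 1. MT-ND1, a subunit of complex I, had 2615, 2464, 2682 and 2786 CPM in MUT libraries of batch 1, against 3251, 3317, 3011 and 3161 CPM in WT libraries. It had 2152, 2031 and 2328 CPM in MUT libraries of batch 3, against 1914, 2050 and 2049 CPM in WT libraries. Mitochondrial genes took 6.20% ± 0.31 of counts in MUT and 7.21% ± 0.28 in WT libraries of batch 1 (SD, n = 4 each; two-sided exact permutation p = 0.0286, the smallest that design allows, 0.0572 adjusted over both batches). In batch 3 they took 4.76% ± 0.28 in MUT and 4.19% ± 0.52 in WT libraries (SD, n = 3 each; exact permutation p = 0.2, where 0.1 is the smallest possible). WT library 1 had 3.60%, and without it the WT mean was 4.49% and the difference was 0.267 percentage points, against 0.564 with it.

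Values of 2 technical properties were set against the change across genes. The log2 fold change correlated with GC content across genes at a Spearman rho of -0.254 in batch 1 and 0.408 in batch 3, and with transcript length at 0.173 in batch 1 and -0.177 in batch 3. Once that trend was removed, 54.6% of 17791 genes had the same sign in both batches, with a Spearman correlation of 0.14. The chaperone medians were then 0.13 in batch 1, where 11 of 28 were called higher, and -0.02 in batch 3, where none was, and the mitochondrial medians were -0.20, with 9 of 13 called lower, and 0.19, with none called. The cholesterol medians were 0.10 in batch 1, with 8 of 25 called higher, and -0.04 in batch 3, with none called. In the same fits, 345 of 18432 genes were called higher and 303 lower in batch 1. In batch 3, 41 of 18175 were called higher and 9 lower. The part of GC content, of length and of the mitochondrial share in the differences between batches was not tested further.

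**Figure D4:**
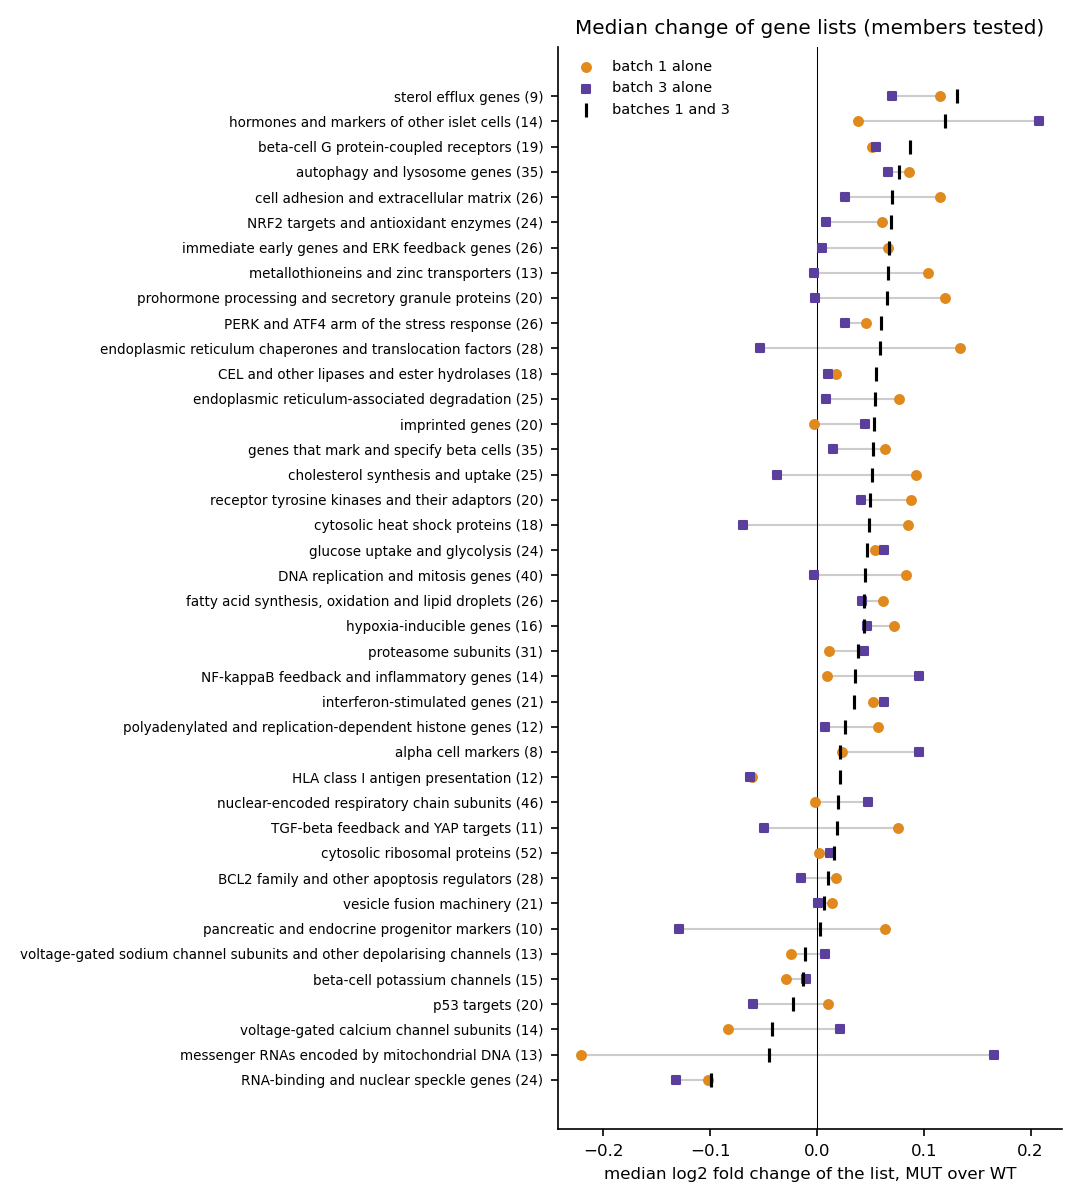
Median log2 fold change between MUT and WT medium of each gene list with at least 8 members tested (number in brackets), in batch 1 alone (circles), batch 3 alone (squares) and both batches (bars). The chaperone, cholesterol and mitochondrial lists have their batch medians on opposite sides of 0, and the RNA-binding list lies below 0 in both.

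Of the 44 gene lists, which cover beta cell function, stress responses, metabolism, signalling and markers of other cells, 4 had a called member over both batches (GC, CHGB, CDH2 and CD68, 1 each), and 2 had one in batch 3 (GC and IGF2). The autophagy and lysosome list had a median of 0.08, with 30 of 35 members above 0 and 12 higher at an unadjusted p under 0.05 (6 to 14 with 1 library left out), while 8.16% of all entries tested were higher at that p and 57.2% of all genes of at least 5 CPM were above 0. NPC2, which carries cholesterol out of lysosomes, had 0.14 ± 0.036 (adjusted p = 0.0839). Among 14 hormones and markers of other islet cells the median was 0.12, with 8 of the 14 above 0. Of the 15 genes in that list, 6 had a mean under 1 CPM. SST, somatostatin, had 0.28 ± 0.079 (adjusted p = 0.121). TSPAN7, a surface protein and islet autoantigen of beta cells, lay above WT in both batches with 0.15 ± 0.033 (adjusted p = 0.0620), and the antioxidant enzyme CAT with 0.12 ± 0.032 (adjusted p = 0.0940).

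Batch 2 held another 3 MUT and 3 WT libraries, none of them used above, in which 6926 of 19992 genes (34.6%) were called. Of the 50 entries called over batches 1 and 3 that were tested there, 17 (34%) had the same sign, against 46.9% of all 19743 genes tested in both. In batch 2, 9 were called the same way and 20 the opposite way, 19 of them higher here and lower in batch 2, while of all genes 14.8% were called in batch 2 with the sign they had here and 19.9% with the opposite sign. CLU had a log2 fold change of -0.77 in batch 2 (adjusted p = 1.68e-07), CD68 of -0.71 (adjusted p = 8.54e-07) and DPP4 of -0.95 (adjusted p = 3.86e-07). CDH2, at 0.37 (adjusted p = 8.8e-05), PDGFD, at 0.60 (adjusted p = 0.000207), and CNNM1, at 0.28 (adjusted p = 0.00128), were higher in MUT medium there too.

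**Figure D5:**
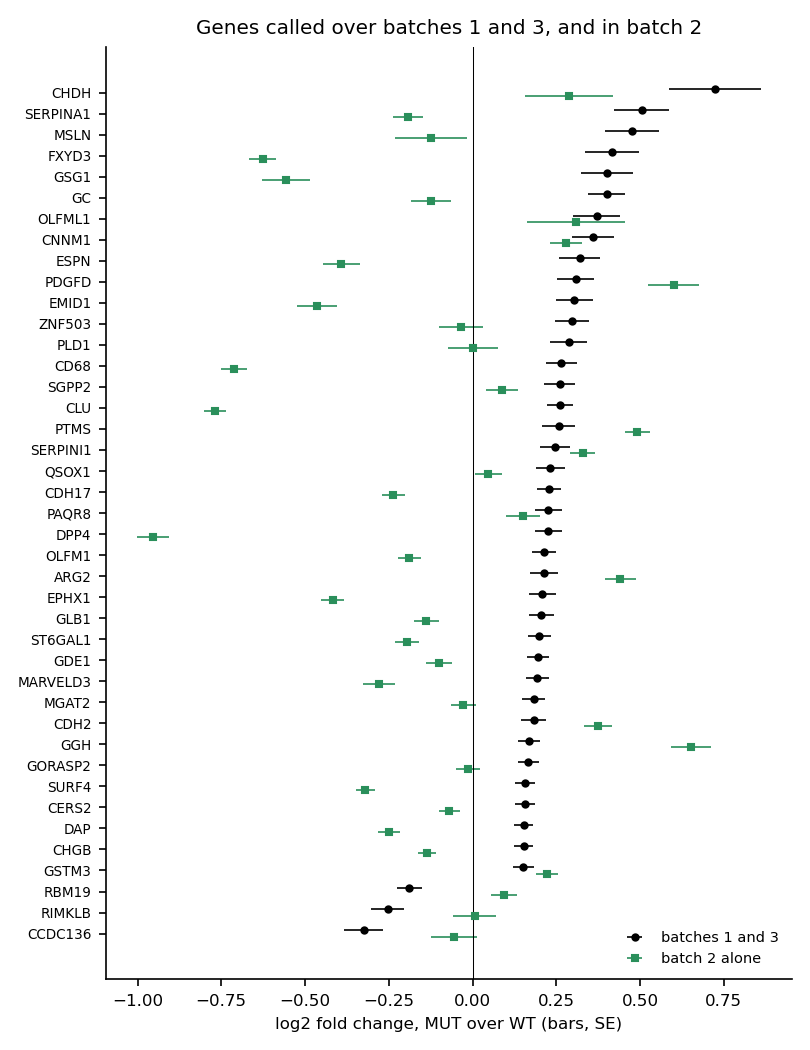
Log2 fold change between MUT and WT medium, with SE, of the 41 genes with a symbol and a mean of at least 5 CPM that were called over batches 1 and 3 (circles), and the same genes in batch 2 alone (squares). In batch 2 the sign was opposite for 26 of the 41.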

How the data were processed

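Per the labels' protocols, total RNA was extracted with a Qiagen kit and TruSeq Stranded mRNA libraries were sequenced as paired reads on an Illumina NovaSeq instrument. The authors deposited 1 table of estimated counts per gene, not normalized. These were made with fastp and kallisto, per the submitters' processing notes; versions, build and annotation are not given there. Because kallisto divides ambiguous reads by estimation, values of genes with near copies are uncertain: 917 tested entries hold the same values as another. Of 66025 entries 42000 had a symbol.

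Estimated counts were rounded, filtered with filterByExpr and scaled by TMM over the 14 libraries of batches 1 and 3. The quasi-likelihood test of edgeR (version 4.0.16, with limma 3.58.1 in R 4.3.3) was fitted with batch and medium (11 residual degrees of freedom), with their interaction (10), and in each batch alone (6 in batch 1 and 4 in batch 3). P-values were adjusted by Benjamini-Hochberg over all genes tested. The standard error is the log2 fold change over the square root of F. Coordinates are those of GENCODE release 29 on GRCh38, matched by identifier. Alternatives included DESeq2 1.42.0, voom, other scalings and filters, single libraries left out and, added after seeing the data, removal of a trend with GC content and length.

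The comparison, the 44 gene lists and the rule for named genes were chosen with earlier results of these data known. The rule allowed a short set of beta cell and stress genes, the 12 higher and 12 lower called genes of smallest p over both batches that had a symbol, the same sign in each batch and a mean of at least 5 CPM, 8 each way in each batch alone, 10 from the interaction with opposite signs, and up to 4 members of a list with at least 3 called, otherwise 2. Samples with the same replicate number were at most weakly correlated (r from -0.0015 to 0.085), and the numbers were not taken as pairs.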

Additional observations from a re-analysis of the deposited data

Results flagged for a closer look

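In groups of 4 libraries, 1 library stood far from the others in 8 of 144 groups examined, and chance alone does this in about 1 of 20 groups. DENND11 had 64.1 CPM in MUT library 3 of batch 1, with 28.9 to 33.6 CPM in the others. IGF2 had 1956 CPM in MUT library 1 of batch 1, with 1646 to 1685 CPM in the others, and 1484 CPM in WT library 4 of batch 1, with 1913 to 1937 CPM in the others. MSLN had 10.4 CPM in WT library 1 of batch 1, with 8.58 to 8.82 CPM in the others. NEUROD1 had 238 CPM in MUT library 2 of batch 1, with 209 to 214 CPM in the others. LPCAT3 had 77.6 CPM in MUT library 3, with 74.9 to 75.3 CPM in the others, and ABHD12 had 92.0 CPM in MUT library 4, with 88.5 to 89.0 CPM in the others, both in batch 1. HSP90B1, an endoplasmic reticulum chaperone, had 1025 CPM in WT library 2 of batch 1, with 1081 to 1092 CPM in the others.

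The change between MUT and WT medium differed between the batches in 2 cases. It was higher in batch 3 than in batch 1 by 1.01 on the log2 scale for TXNIP, and the difference was -2.88 for the 6 entries without a symbol that hold identical counts. In those entries WT library 3 of batch 3, at 8.07 CPM, also lay below the other WT libraries.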

How the results depend on the processing

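For batches 1 and 3 together, 52 entries were called by edgeR's quasi-likelihood test. The count was 679 with DESeq2, 245 with voom and quality weights, 118 with no filter, 273 with the EV libraries added, 793 with the GC content and length trend removed, 962 with that and without WT library 1 of batch 3 (both chosen after seeing the data), 29 with 1 summed profile per batch and medium (6 shared with the 52), 23 with a stricter filter (all 23 shared) and 5 with total library size only. It was 0 with no batch term (988 at an unadjusted p under 0.05), in the test against a fold of 1.2 (288) and with voom and correlated libraries (2298). Leaving out 1 library gave 0 to 169 calls: 0 (2518 to 2881 unadjusted) without MUT library 1 or 4 or WT library 3 of batch 1, or without MUT library 1 or 2 or WT library 2 of batch 3, and 169 without MUT library 3 of batch 1. The replicate block gave 12 calls, 8 of them shared; it left TXNIP's difference between batches called and gave 9 in the interaction test, 1 in batch 1 and 103 in batch 3. Whether the replicate numbers pair the libraries is not known, and the main fit did not take them as pairs.

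In the interaction test the 7 calls became 518 with DESeq2, 210 with voom, 88 with no filter, 11 with the trend removed and 0 with EV libraries added (4164 unadjusted). With 1 library left out they became 0 to 637: 0 (2506 to 3660 unadjusted) without WT library 1 of batch 1 or without MUT library 2 or 3 or WT library 1 or 2 of batch 3, 63 without WT library 3 of batch 3 and 637 without MUT library 4 of batch 1. In batch 1 alone the 0 calls became 647 with DESeq2, 227 with no filter, 648 with the trend removed, 39 as a contrast in the fit of 14 libraries, 2 with EV libraries added, and 0 to 149 with 1 library left out (149 without MUT library 4). In batch 3 alone the 38 calls became 338 with DESeq2, 467 with voom, 373 with no filter, 132 with EV libraries added, and 0 to 105 with 1 library left out. The cause was not tested.

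Called entries stayed called in between 4 of 24 and 18 of 28 alternatives that could test them, and 1, without a symbol and low, changed sign in some. Of 81 values of named genes followed through the alternatives, CYP51A1 in batch 3 (-0.10) ran from -0.16 to 0.012 with 1 library left out, above 0 only without WT library 1 of batch 3, and no other of the 81 reversed. Most values printed for a single batch were not among the 81. With the trend removed, PAX6 in batch 3 (-0.02) was 0.07, and in batch 1 PLCH2 (-0.01) was 0.05, ERMN (0.0028) was -0.05 and DENND11 (0.0031) was -0.04. TXNIP's difference between batches stayed called with DESeq2, no filter, voom, the replicate block and the trend removed, and without MUT library 3 or 4 of batch 1 or WT library 3 of batch 3; elsewhere its adjusted p was up to 0.202.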
